A study of Mus musculus with 6 samples.

Results

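The kinesin superfamily was described here in the medial prefrontal cortex (mPFC) of *Shank3* transgenic mice through all protein-coding genes whose symbol is Kif followed by a digit. GENCODE release M21 of the mouse genome (GRCm38) held 39 such genes, and 37 of them were among the 18254 genes of the deposited RNA-seq table; *Kif12* and *Kif2b* had no row. Of the 37, 36 averaged 5 or more normalized counts across the 6 libraries and were tested, and *Kif18b* did not reach that level. The symbol alone chose the genes, so 1 of them, *Kif1bp*, encodes a protein that binds kinesins and is not itself a motor, and motors with other names, such as *Kifc2*, are described separately.

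Kinesins are motor proteins that bind microtubules and use ATP to walk along them, and most move towards the plus end, which in an axon points away from the cell body. Neurons depend on them to carry synaptic vesicle precursors, mitochondria, receptors and cytoskeletal proteins into axons and dendrites. Kinesin-1, the founding motor, is made of a pair of heavy chains, encoded by *Kif5a*, *Kif5b* or *Kif5c*, and a pair of light chains, encoded by the *Klc* genes; other subfamilies carry cargo in axons and cilia, build the mitotic spindle or shorten microtubules.

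The study compared mice that carry an EGFP-Shank3 transgene (TG), which adds a tagged copy of *Shank3*, a scaffold protein of excitatory synapses, with wild-type (WT) littermates. All mice were males on the C57BL/6J background, 10 to 12 weeks old, with no other allele or treatment named. Each genotype had 3 libraries, numbered 1 to 3, and the tissue of 2 mice was pooled for each library, so the spread between libraries is between pools and not between single animals. The promoter of the transgene was not given in the sources used here. The labelled genotype was checked on *Shank3* itself, which stood at 17469.8, 19004 and 16310.4 normalized counts in TG libraries 1, 2 and 3 and at 8374, 8173 and 6791 in WT libraries 1, 2 and 3. All TG libraries lay above all WT libraries, with a log2 fold change of 1.18 (SE 0.10); its adjusted p in limma's moderated test was 0.0643, and 0.000437 once the replicate number entered the model as a block.

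Values are read counts normalized by the authors for library size, which allow a gene to be compared between libraries, and values by library are normalized counts in the order of numbers 1, 2 and 3; to compare genes with each other they were divided by the length of the gene's merged exons in kilobases. Merged exons span every annotated isoform, so this length can exceed that of the transcripts present, and ranks by level depend on it. The normalized counts summed to between 28363967 and 29447717 per library. A fold change is the difference TG minus WT on log2(normalized count + 1), and an adjusted p is limma's, with Benjamini-Hochberg adjustment over the 16714 genes tested. In bulk tissue, fewer cells of a type and less RNA per cell cannot be told apart. Libraries numbered 3 stood apart from numbers 1 and 2 in both genotypes, and 15 of 15 oligodendrocyte markers had fitted values below 0 in TG, as described with the values that they touch.

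The levels of the kinesin genes spanned a wide range, and 1 gene stood far above the rest. *Kif5a*, a heavy chain of kinesin-1 found mainly in neurons, had a mean of 14642 normalized counts per exon kilobase over the 6 libraries, 3.45 times that of the next gene, *Kif1a*. *Kif1a*, which carries synaptic vesicle precursors, and *Kif5c*, a further neuronal kinesin-1 heavy chain, followed at 4249.7 and 4088 per kilobase. Their library values overlapped, from 4020.2 to 4346 for *Kif1a* and from 3696 to 4683 for *Kif5c*, so the order of these neighbours was not resolved. *Kif1b*, *Kif3a*, *Kif21a* and *Kif3c* came next, at 1587, 1315, 1126 and 1105 per kilobase, and *Kif5b*, the heavy chain made in most cell types, at 931.

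*Kif5a* alone made up 42.5% to 48.8% of the summed per-kilobase level of the 37 genes in a library, and the 3 *Kif5* genes together 58.7% to 63.1%. In counts, 13 of the 37 genes had a mean of at least 1000, 8 of 100 to under 1000, 15 of 5 to under 100 and 1, *Kif18b*, under 5. The genes in the lowest groups included those of dividing cells and of cilia, such as *Kif11*, *Kif15*, *Kif20b* and *Kif6*. *Kif18b*, a regulator of microtubule ends in mitosis, had 2.82, 2.63 and 4.37 in TG and 5.57, 3.95 and 7.27 in WT, close to the floor of 3 counts, so no fold is given.

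**Figure D1:**
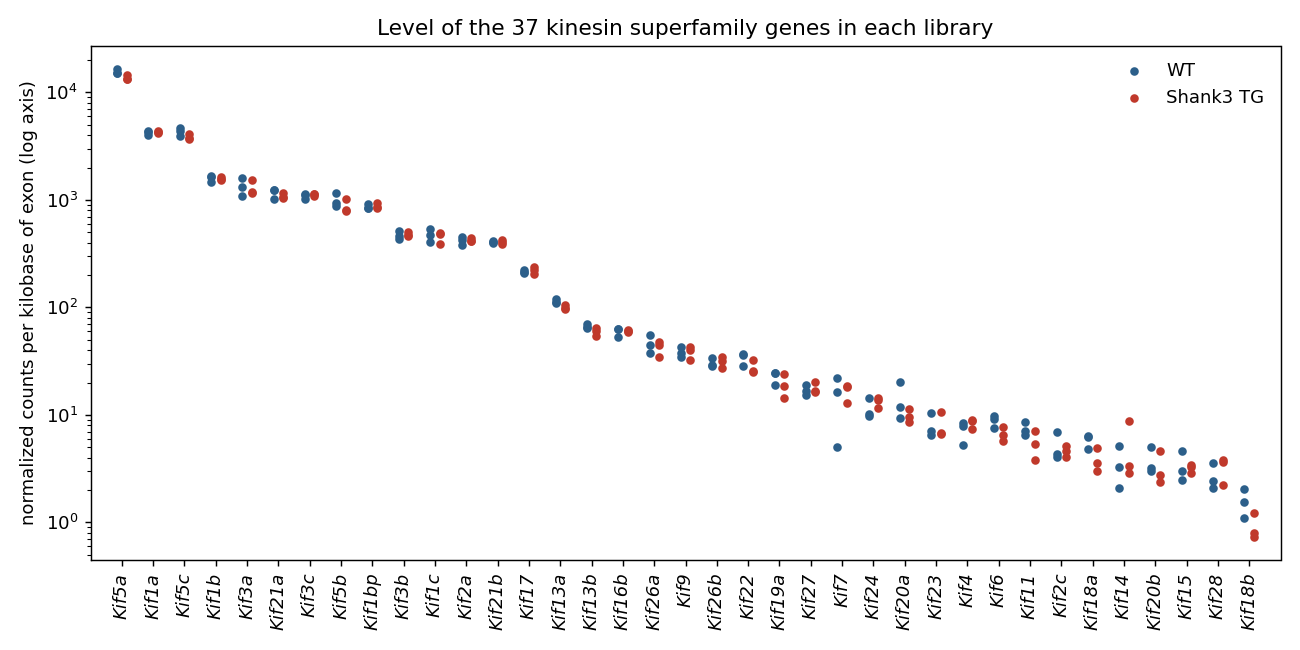
Level of the 37 kinesin genes in each of the 6 libraries, as normalized counts per kilobase of merged exons on a log axis, with genes in order of their mean; blue points are WT and red points *Shank3* TG libraries. *Kif5a* sits at a mean of 14642, above *Kif1a* and *Kif5c*, and *Kif18b* is the lowest.

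Across the superfamily, limma found no kinesin gene past an adjusted p of 0.05 and none of the 16714 genes tested (0%), although 336 had an unadjusted p under 0.05; the values are normalized and not whole, so the count test of the study's methods was not run here and all calls given are limma's. The 0 holds for limma on these values, and that count test may call more genes. The lowest adjusted p of a kinesin gene in limma under any setting tried was 0.305. The fitted value was below 0 in 21 of the 36 genes and above 0 in 15, which is 58.3% below 0 beside 51.4% of all genes tested. The median log2 fold change of the 36 was -0.024, beside -0.0037 for all genes, with a range from -0.61 for *Kif18a* to 0.41 for *Kif7*, and it turned to 0.0020 without WT library 3. At an unadjusted p under 0.05, 1 kinesin gene was lower in TG (*Kif18a*) and 0 were higher, while 1.08% of all genes were lower and 0.933% higher at that threshold. Leaving out TG library 1 or WT library 2 gave 0 kinesin genes, beside 219 of 16714 and 365 of 16739 genes tested, and leaving out TG library 3 or WT library 1 gave 2, beside 353 of 16698 and 379 of 16732.

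The libraries numbered 3 deviated together from their genotype means, and numbers 1 and 2 were only weakly separated from each other. The count of kinesin genes depended on whether the number entered the fit. In a fit that blocked on the replicate number, 6 of the 36 kinesin genes had an unadjusted p under 0.05 and a lower value in TG, namely the 3 kinesin-1 heavy chains *Kif5a*, *Kif5b* and *Kif5c*, the kinesin-3 genes *Kif13a* and *Kif13b*, and *Kif18a*. That is 16.7% of the 36, beside 2.66% of all genes lower in that fit. None of the 36 was higher at that threshold, beside 2.33% of all genes. After adjustment none of the 6 passed, and the lowest adjusted p was 0.588, for *Kif5b*; 1 gene of all tested, *Shank3*, passed in that fit. Of the 33 tested genes outside kinesin-1, 18 had fitted values below 0 and 3 were among the 6.

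Taken by number, 11 of the 36 genes were lower in TG than in WT within all 3 pairs of libraries (30.6%), beside 13.2% of all genes, and 1, *Kif4*, was higher within all 3 (2.78%), beside 11.6%. Every TG library lay below every WT library for 2 kinesin genes, *Kif5a* and *Kif13a*, which is 5.56% of the 36 beside 3.12% of all genes. No kinesin gene had every TG library above every WT library, beside 2.91% of all genes. The count of 2 rested on the full set of libraries: it was 3, 5 and 7 without TG library 1, 2 and 3, and 10, 3 and 4 without WT library 1, 2 and 3. With 1 library fewer such a count also rises for genes in general, and the shares of all genes lower without overlap were 5.61%, 7.34% and 7.74% without TG library 1, 2 and 3 and 7.73%, 7% and 7.99% without WT library 1, 2 and 3.

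**Figure D2:**
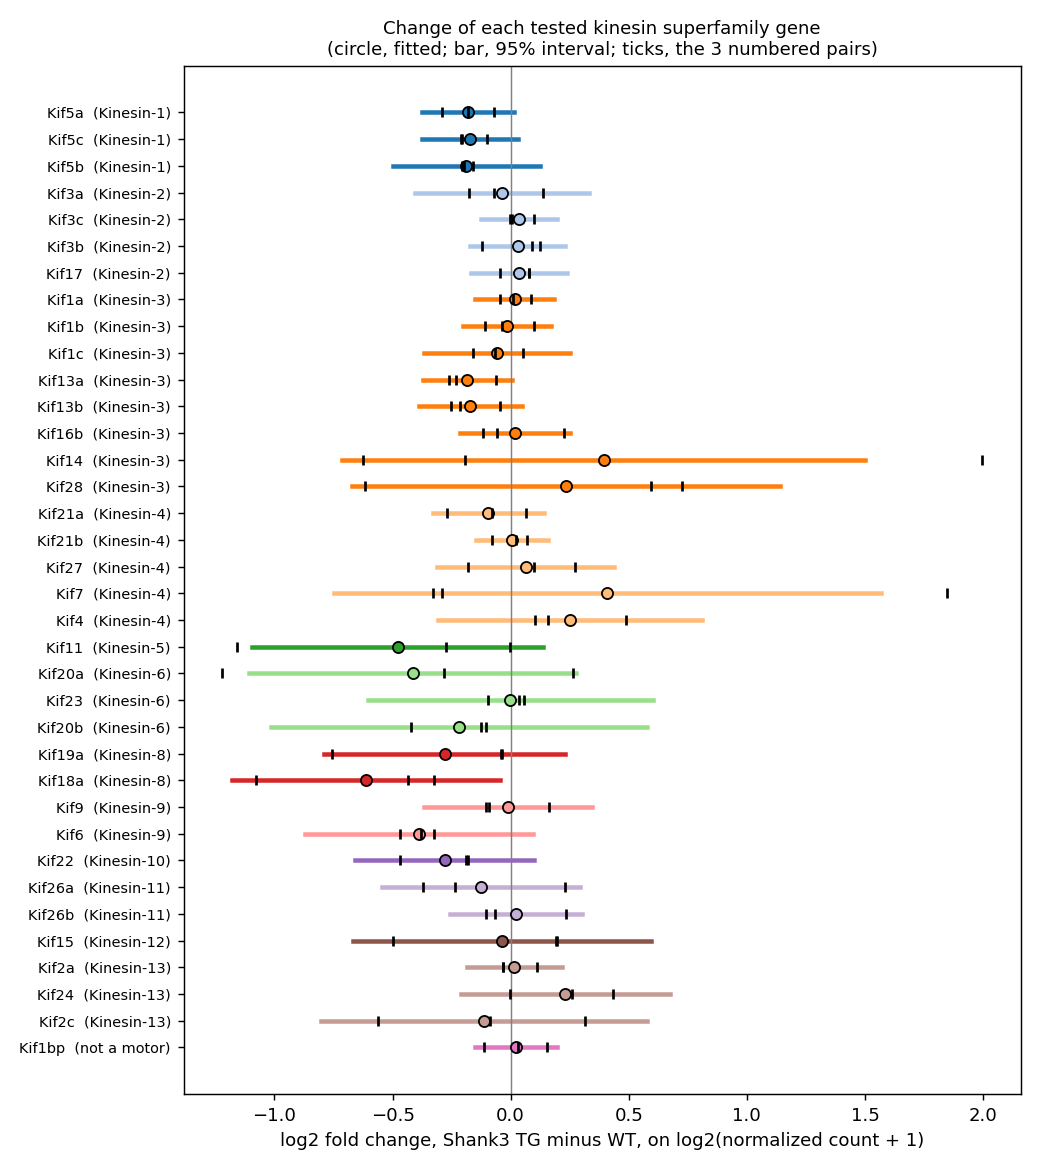
Log2 fold change (*Shank3* TG minus WT, on log2(normalized count + 1)) of the 36 kinesin genes tested, ordered by subfamily and colored by it; circles are fitted values, bars their 95% intervals and black ticks the differences within library numbers 1, 2 and 3. The 3 kinesin-1 genes at the top sit between -0.19 and -0.17 with all ticks below 0, and the bars of scarce genes such as *Kif7* and *Kif14* are the widest.

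All 3 heavy chains of kinesin-1 had lower mean values in TG, by similar amounts. *Kif5a* (ENSMUSG00000074657, chr10:127225696-127263348, minus strand) carries neurofilaments and other axonal cargo. Its normalized counts were 93718, 101022 and 93129.9 in TG libraries 1, 2 and 3 and 114608, 105984 and 105603 in WT libraries 1, 2 and 3. Every TG library lay below every WT library, and the nearest were TG library 2 and WT library 3. The means were 95957 ± 4397 and 108730.0 ± 5092 (SD, n = 3 libraries each), a TG mean 11.7% under that of WT. The log2 fold change was -0.18 (SE 0.084, 95% interval -0.38 to 0.015), with an unadjusted p of 0.066 in limma, 0.041 with the replicate block, and an adjusted p of 1.00 and 0.996. Within library numbers 1, 2 and 3 the differences were -0.29, -0.069 and -0.18.

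*Kif5c* (ENSMUSG00000026764, chromosome 2), the other neuron-enriched heavy chain, had normalized counts of 26394, 26937 and 28979 in TG libraries 1, 2 and 3 and 28263, 31179.7 and 33444 in WT libraries 1, 2 and 3. The groups overlapped, since TG library 3 exceeded WT library 1, but each TG library was below the WT library of its number. The fitted value in TG was 11.2% under that of WT, a log2 fold change of -0.17 (SE 0.087, 95% interval -0.37 to 0.030). Its unadjusted p was 0.085 in limma and 0.017 with the replicate block, and neither passed adjustment (1.00 and 0.851).

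*Kif5b* (chromosome 18), which serves mitochondria and lysosomes in many cell types, stood at 6290.1, 6472 and 8084 in TG libraries 1, 2 and 3 and 7022, 7469 and 9260.5 in WT libraries 1, 2 and 3. The libraries numbered 3 were the highest of their genotype, and TG library 3 lay above WT libraries 1 and 2. Differences within numbers 1, 2 and 3 were -0.16, -0.21 and -0.20, a span narrower than that of *Kif5a* or *Kif5c*. The log2 fold change was -0.19 (SE 0.13, 95% interval -0.50 to 0.12), with an unadjusted p of 0.201 in limma and 0.0056 with the block (SE 0.050). Without both libraries numbered 3 the log2 fold changes of *Kif5a*, *Kif5b* and *Kif5c* were -0.18, -0.18 and -0.15. Leaving out single libraries moved *Kif5b* to -0.12 (without TG library 1), -0.30 (without TG library 3) and -0.069 (without WT library 3).

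**Figure D3:**
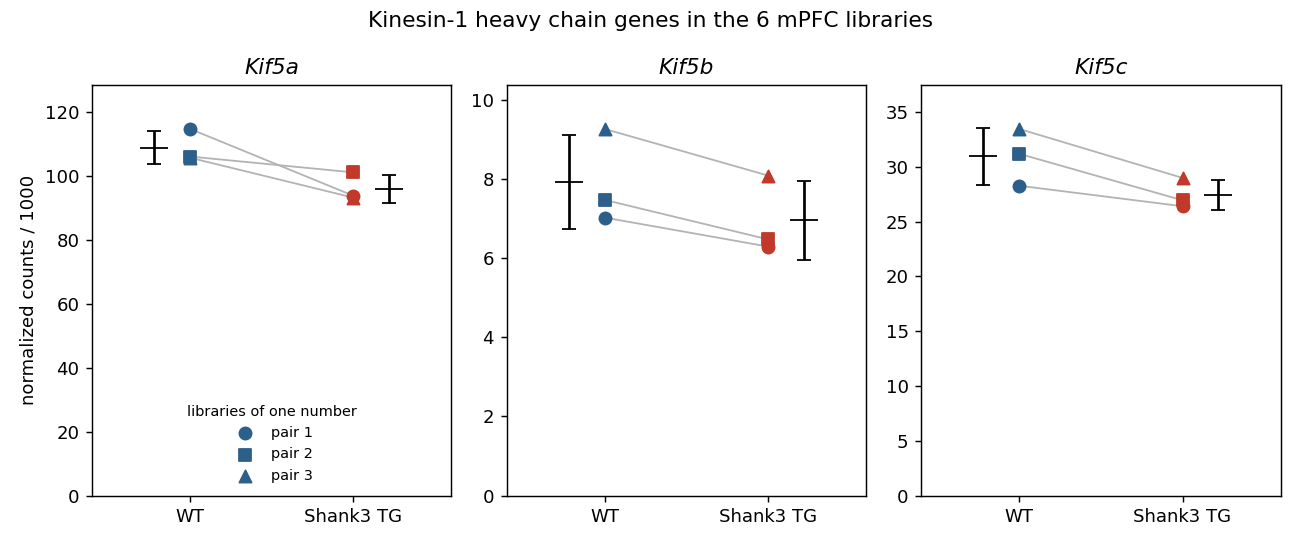
Normalized counts (axis in units of 1000) of *Kif5a*, *Kif5b* and *Kif5c* in the WT (blue) and *Shank3* TG (red) libraries, each on its own axis from 0; grey lines join libraries of the same number, and black bars give the mean and SD of 3 libraries. All 9 lines slope down from WT to TG, and the groups are separate for *Kif5a* alone.

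Whether the difference was larger for *Kif5a* than for its paralogues was asked with the ratio of the genes within each library, from which library size drops out. The log2 ratio of *Kif5a* to *Kif5b* was 3.80 ± 0.24 in TG and 3.79 ± 0.26 in WT (SD, n = 3), and the difference of 0.0069 had an exact two-sided permutation p of 0.9. The log2 ratio of *Kif5a* to *Kif5c* was 1.81 ± 0.11 in TG and 1.81 ± 0.19 in WT, and the difference of -0.0081 had an exact p of 1. With 3 libraries against 3 such a test cannot go below 0.1. The ratios moved from library to library, since that of *Kif5a* to *Kif5b* ran from 3.51 to 4.03 in WT alone. *Kif5a* made up 74.4% of the summed per-kilobase level of the 3 *Kif5* genes in TG and 74.5% in WT on average, with libraries from 72.1% to 77.2%.

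These genes make up most of the summed level of the superfamily, which was also compared. The sum of the 37 genes per exon kilobase was 30480.1, 31621 and 31313 in TG libraries 1, 2 and 3 and 33631, 33594 and 33767 in WT libraries 1, 2 and 3. The TG sums lay below the WT sums with no overlap, a description that has no test here. The share of the 3 *Kif5* genes in that sum was 59.2% in TG and 62.0% in WT on average, and that of *Kif1a* 13.7% and 12.6%.

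The sequence before a *Kif5* gene is shown for *Kif5c*, the member of the trio with a start site in the RefSeq promoter table used (GRCm38.p6), in which 29 of the 37 genes had an entry. The 250 bases before its start, at chr2:49619036-49619285 on the plus strand, contain no annotated exon base and hold 55.2% G and C. Capitals mark a match to the TATA box letters TATAAA, on the opposite strand, and a match to the cyclic AMP response element TGACGTCA, both searched on either strand. The former lies in the part of the *Kif5c* window farthest from the start. Of the 32851 windows of that length, 12.4% held the former and 1.55% the latter. Among the kinesin windows the former was also found before *Kif27*, *Kif2c* and *Kif9*, and the latter before *Kif17*. No GC box (GGGCGG, in 32.7% of windows) or CCAAT letters (33.8%) were in this window. A match of letters is a description and was not linked to the values.
Kif5c: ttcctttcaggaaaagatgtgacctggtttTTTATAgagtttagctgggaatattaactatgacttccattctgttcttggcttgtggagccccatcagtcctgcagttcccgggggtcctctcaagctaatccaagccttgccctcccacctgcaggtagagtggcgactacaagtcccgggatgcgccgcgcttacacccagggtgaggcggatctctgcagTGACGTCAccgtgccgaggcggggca

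The partners of the *Kif5* heavy chains were looked at as lists. The light chains, which couple kinesin-1 to cargo, stood close to 0: 2 of the 4 *Klc* genes had fitted values below 0 and 2 above, with a median of -0.018. *Klc1*, the most abundant, had 19181, 19674 and 18175 in TG and 19090.1, 20361 and 17416 in WT, with overlapping groups and a log2 fold change of 0.0063 (SE 0.082). *Klc2* and *Klc4* had log2 fold changes of -0.041 and 0.0053. Of 20 genes for kinesin cargo adaptors, 10 were below 0 and 10 above, with a median of 0.0040; *Clstn1*, *Mapk8ip3* and *Spag9*, the most abundant, had log2 fold changes of 0.045, 0.040 and -0.11. *Hap1*, the huntingtin-associated adaptor, was the adaptor whose groups did not overlap, at 2579, 3232 and 2480.1 in TG and 2417, 2229.5 and 2282 in WT, with TG library 2 the highest and a log2 fold change of 0.25 (SE 0.11, unadjusted p = 0.052 in limma, adjusted p = 1.00).

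Kinesin-2, a group of heteromeric and homodimeric motors that work in cilia and dendrites, showed no common direction, with 1 of its 4 genes below 0 and 3 above, between -0.037 and 0.037. *Kif3a*, a subunit of the heterotrimeric motor of cilia, stood at 4290.2, 4171 and 5473 in TG and 3906, 4711 and 5742 in WT. Libraries numbered 3 were the highest in both genotypes, by 0.37 on the log2 scale in TG and 0.42 in WT over the mean of libraries 1 and 2, and the groups overlapped. Its log2 fold change was -0.037 (SE 0.16, 95% interval -0.40 to 0.33). *Kif3c*, which pairs with *Kif3a* in neurons, was steadier, at 8342, 8371 and 8124 in TG and 8300.0, 8388 and 7590.3 in WT. The groups overlapped, and the log2 fold change of 0.034 had a 95% interval of -0.13 to 0.20. *Kif3b* and *Kif17*, the motor linked to transport of NMDA receptor subunits in dendrites, had log2 fold changes of 0.030 (SE 0.087) and 0.037 (SE 0.088). The subunit *Kifap3*, which binds cargo for *Kif3a* and *Kif3b*, had a log2 fold change of -0.0061.

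The kinesin-3 genes split, with 4 of 8 below 0. *Kif1a* had 39231, 40544 and 39849 in TG and 40463, 40302 and 37508 in WT, and the groups overlapped. Its log2 fold change was 0.017 (SE 0.072, 95% interval -0.15 to 0.18). *Kif1b*, which carries mitochondria and vesicle precursors, had 27650.4, 26947 and 28770.1 in TG and 25783, 29015 and 29479.9 in WT, again overlapping, with a log2 fold change of -0.014 (95% interval -0.20 to 0.17). Whether these motors differ from *Kif5a* in their change was not tested.

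*Kif13a*, which moves recycling endosomes, was the kinesin-3 gene whose groups did not overlap. Its normalized counts were 774, 851 and 807 in TG libraries 1, 2 and 3 and 908, 888 and 967 in WT libraries 1, 2 and 3. All TG libraries were below all WT libraries, the closest being TG library 2 and WT library 2. The log2 fold change was -0.18 (SE 0.081, 95% interval -0.37 to 0.0056), with an unadjusted p of 0.056 in limma, 0.033 with the replicate block and an adjusted p of 1.00 and 0.978. *Kif13b*, its paralogue, had 785, 835 and 698 in TG and 912, 860.2 and 831 in WT. The groups overlapped by TG library 2 and WT library 3, and TG was lower within each number. Its log2 fold change was -0.17 (SE 0.095), with an unadjusted p of 0.112 in limma and 0.047 with the block, and an adjusted p of 1.00 and 0.996. Without TG library 3 it was -0.099.

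Of the other kinesin-3 genes, *Kif1c* and *Kif16b*, an endosome motor, had log2 fold changes of -0.057 (SE 0.13) and 0.017 (SE 0.10). *Kif1c* was the reverse of *Kif3a* across numbers, with libraries numbered 3 below the mean of libraries 1 and 2 by 0.34 on the log2 scale in TG and 0.32 in WT. *Kif28* was near the lower limit of the filter, at 7.48 to 13.4 counts, with a log2 fold change of 0.23 (SE 0.39) that ran from 0.093 (without WT library 1) to 0.46 (without TG library 2). *Kif14*, a mitotic motor shown by library because of its 1 high value, had 29.6, 90.3 and 34.4 in TG and 34.0, 21.9 and 53.5 in WT, and its log2 fold change of 0.39 (SE 0.48) became -0.097 without TG library 2.

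In kinesin-4, 1 of 5 genes was below 0. *Kif21a*, a motor that limits microtubule growth, had 6854, 6683 and 7578 in TG and 6545, 8064 and 8008 in WT. Its groups overlapped, with WT library 1 the lowest of all 6, and the log2 fold change was -0.095 (SE 0.10, unadjusted p = 0.378 in limma), or -0.19 without WT library 1 and -0.043 without WT library 2. *Kif21b*, a neuronal relative, had 4730.0, 4943 and 5140.0 in TG and 4999, 4864 and 4895 in WT, the WT libraries lying within the range of the TG libraries. Its log2 fold change of 0.0046 had a 95% interval of -0.15 to 0.16. Among the scarce members, *Kif4*, a chromosome-bound motor, was higher in TG within all 3 numbers, at 49.8, 48.3 and 40.7 in TG and 46.2, 43.2 and 28.7 in WT, but the groups overlapped and the log2 fold change was 0.25 (SE 0.24, unadjusted p = 0.33 in limma), or 0.38 without WT library 1 and 0.044 without WT library 3. *Kif7*, the Hedgehog pathway regulator at the cilium tip, shown like *Kif4* because of its values, had 82.9, 84.8 and 58.8 in TG and 102, 22.8 and 74.1 in WT. WT library 2 was far under the rest, and the log2 fold change of 0.41 (SE 0.50) became -0.22 without it. *Kif27* had a log2 fold change of 0.064 (SE 0.16).

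*Kif18a* (kinesin-8, chromosome 2), which damps chromosome movements on the spindle, was the one kinesin gene with an unadjusted p under 0.05 in the main limma fit. Other fits without the block gave other counts, as described with the processing. Its normalized counts were 34.9, 29.3 and 48.4 in TG libraries 1, 2 and 3 and 47.5, 63.0 and 60.9 in WT libraries 1, 2 and 3. TG library 3 lay just above WT library 1, so the groups overlapped, and TG was lower within each number. The fitted fold of TG over WT was 0.654, a log2 fold change of -0.61 (SE 0.24, 95% interval -1.18 to -0.044). Its unadjusted p was 0.038 in limma and 0.027 with the block, with an adjusted p of 1.00 and 0.933. Leaving out single libraries moved its log2 fold change between -0.81 and -0.45. *Kif19a*, a kinesin-8 gene that shortens microtubules at the tips of motile cilia, had 97.3, 75.5 and 59.0 in TG and 100.1, 77.5 and 101 in WT, overlapping, and its log2 fold change of -0.28 (SE 0.22) became -0.10 without TG library 3 and -0.46 without TG library 1.

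*Kif11*, the kinesin-5 motor that pushes spindle poles apart, had 40.3, 53.2 and 28.1 in TG and 48.9, 53.4 and 64.0 in WT. TG library 3 was the lowest and the groups overlapped, with a log2 fold change of -0.48 (SE 0.27, unadjusted p = 0.111 in limma) that became -0.24 without that library. In kinesin-6, whose members act in cytokinesis, all 3 fitted values were below 0. *Kif20a* (chromosome 18) had 49.4, 37.2 and 41.8 in TG and 41.0, 88.3 and 51.1 in WT, where WT library 2 stood alone, and its log2 fold change of -0.41 (SE 0.30) became -0.10 without it and -0.65 without WT library 1. *Kif23* had 54.0, 52.4 and 83.6 in TG and 51.9, 56.1 and 81.5 in WT, nearly the same in both genotypes but higher in the libraries numbered 3, with a log2 fold change of -0.0018. *Kif20b* behaved likewise across numbers, with libraries numbered 3 above the others by 0.81 on the log2 scale in TG and 0.67 in WT, and had a log2 fold change of -0.22 (SE 0.34).

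*Kif22*, the kinesin-10 motor on chromosome arms, had 122, 159 and 126 in TG and 139, 180.2 and 175 in WT. TG was lower within each number while the groups overlapped, with a log2 fold change of -0.28 (SE 0.16, unadjusted p = 0.128 in limma). *Kif15*, a spindle motor of kinesin-12, had 31.5, 37.7 and 35.9 in TG and 27.4, 32.9 and 51.0 in WT, with WT library 3 the highest and a log2 fold change of -0.035 (SE 0.27). A list of 16 genes of proliferating cells was set beside them: 10 of the 15 tested were below 0, with a median of -0.13, and summed levels of 759 to 930.2 in TG and 881 to 1014 in WT. Groups did not overlap for *Mki67*, *Plk1* and *Ccnb2*, in differing directions. *Plk1* had 32.9, 36.9 and 33.7 in TG and 45.3, 37.7 and 42.5 in WT (log2 fold change -0.27, lower) and *Ccnb2* 27.1, 30.8 and 28.9 in TG and 21.8, 26.0 and 22.8 in WT (log2 fold change 0.29, higher), neither with an unadjusted p under 0.05 in limma. *Mki67*, a marker of dividing cells, had 42.3, 44.3 and 44.3 in TG and 56.3, 67.5 and 75.4 in WT, all TG libraries below all WT libraries, with a log2 fold change of -0.59 (SE 0.18, unadjusted p = 0.014 and adjusted p = 1.00 in limma). The part of these cells in the kinesin values was not tested.

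Kinesin-9 genes work with motile cilia and flagella. *Kif9* had 183, 138 and 172 in TG and 163, 149 and 184 in WT, with overlapping groups and a log2 fold change of -0.011 (SE 0.15). *Kif6* had 34.6, 39.5 and 46.6 in TG and 45.3, 55.0 and 58.5 in WT. Its groups overlapped by TG library 3 and WT library 1, TG was lower within each number, and the log2 fold change was -0.39 (SE 0.21, unadjusted p = 0.099 in limma). Of 16 motile cilia genes 12 were tested and 8 were below 0, with a median of -0.10 and summed levels of 1329.5 to 1493 in TG and 1301 to 1821 in WT. *Foxj1*, the regulator of motile cilia, had 77.8, 86.9 and 93.4 in TG and 103, 115 and 177 in WT, every TG library below every WT library (log2 fold change -0.57, unadjusted p = 0.033 in limma). *Cfap43*, a protein of the ciliary axoneme, had 37.2, 39.4 and 33.5 in TG and 51.5, 54.6 and 97.8 in WT, again without overlap (log2 fold change -0.81, unadjusted p = 0.018 in limma), and the part of ciliated cells in the values of *Kif6* and *Kif9* was not tested.

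Kinesin-11 genes, which are divergent motors, gave 1 value on each side of 0. *Kif26a*, which is needed in the development of enteric nerves, had 237, 308 and 329 in TG and 307, 262 and 387 in WT, with overlapping groups and a log2 fold change of -0.13 (SE 0.18). *Kif26b* had 401, 505 and 461 in TG and 420.3, 429 and 496 in WT, overlapping too, with a log2 fold change of 0.022 (SE 0.12). In kinesin-13, whose members take microtubules apart, *Kif2a*, which prunes axon branches, had 2628, 2841 and 2636 in TG and 2432, 2907 and 2696 in WT, and its overlapping groups gave a log2 fold change of 0.015 (SE 0.086, 95% interval -0.18 to 0.22). *Kif24*, a centriole protein, had 115, 93.8 and 111 in TG and 115, 78.1 and 81.6 in WT, WT library 1 being the highest and WT libraries 2 and 3 the lowest, with a log2 fold change of 0.23 (SE 0.19) that became 0.40 without WT library 1 and 0.13 without WT library 2. *Kif2c* was at 17.9 to 30.4 counts, with a log2 fold change of -0.11 (SE 0.30). *Kif1bp*, the kinesin-binding protein, had 4552, 4116 and 4187 in TG and 4096, 4455 and 4097 in WT, with overlapping groups and a log2 fold change of 0.023 (SE 0.075).

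The libraries numbered 3 differed from the others in the level of several kinesin genes, and in the same way in both genotypes for 24 of the 36 (66.7%, beside 72.2% of all genes). *Kif5b*, *Kif3a*, *Kif23* and *Kif20b* were higher in both libraries numbered 3 and *Kif1c* was lower in both, whereas *Kif5a* differed by -0.063 in TG and -0.062 in WT on the log2 scale. With both libraries numbered 3 left out, which leaves 2 libraries a genotype, 21 of the 36 fitted values were below 0, 18 of them among the 21 genes below 0 in the full set, beside 51.3% of all genes. At that setting 9 kinesin genes (25.0%) were lower in TG without overlap, beside 13.3% of all genes.

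Other parts of the transport machinery were set beside the kinesins. Among 7 other kinesin motors and subunits 4 were below 0 and 3 above, with a median of -0.0061; *Kifc2*, a minus-end motor of the brain, had 17308, 16427 and 18067 in TG and 17749, 16365 and 17444 in WT and a log2 fold change of 0.0066. Of 26 dynein and dynactin genes, the machinery of transport towards the cell body, 12 were below 0 and 14 above, with a median of 0.0041. Their most abundant member by count, *Dync1h1*, had a log2 fold change of -0.033 (SE 0.099). Of 22 genes of axonal microtubules and neurofilaments 10 were below 0 and 12 above, with a median of 0.0084; groups did not overlap for *Map7d1*, a microtubule-associated protein, which was lower (-0.081), or for the tubulins *Tuba1a* and *Tuba1b*, which were higher (0.091 and 0.084). None of these genes had an unadjusted p under 0.05 in limma. With the block, *Stard9* and *Hap1* were higher and *Hook3* and *Nefh* lower at that threshold, named here because of their values, and none passed adjustment.

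Markers of cell types were examined because *Kif5a* and *Kif5c* are expressed chiefly in neurons. Of 11 neuronal markers 4 were below 0 and 7 above, with a median of 0.037, and their summed level was 378898 to 466800.0 in TG and 383363 to 465111 in WT. *Slc17a7*, of excitatory neurons, was higher in every TG library than in any WT library, at 42302, 42776 and 45669 in TG and 39218, 40002 and 39794 in WT (log2 fold change 0.13, unadjusted p = 0.098 in limma). Oligodendrocyte markers had the list median farthest from 0: 15 of 15 were below 0, 13 with an unadjusted p under 0.05 in limma, 12 without overlap, with a median of -0.43. Of all genes, 51.4% were below 0, 1.08% were lower at that threshold and 3.12% were lower without overlap. The summed level of the oligodendrocyte markers was 81615 to 105448 in TG and 121374 to 123368 in WT, with TG library 2 the nearest to WT. The TG library with the highest value was number 2 for *Kif5a*, *Kif13a* and *Kif13b* and number 3 for *Kif5b*, *Kif5c* and *Kif18a*. Within numbers, the smallest difference was at number 2 for *Kif5a*, *Kif13a* and *Kif13b*. It was at number 1 for *Kif5b* and *Kif5c* and at number 3 for *Kif18a*. The 4 other glial and vascular lists had medians of -0.016 (astrocyte), -0.0096 (microglia), 0.040 (endothelial) and -0.073 (oligodendrocyte precursor). Olfactory bulb and neuroblast genes were above 0 in 10 of 11, with TG library 2 the highest, at a summed 5166 against 3209 to 4099 elsewhere. The part of oligodendrocytes in the values of the kinesin genes was not tested.

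**Figure D4:**
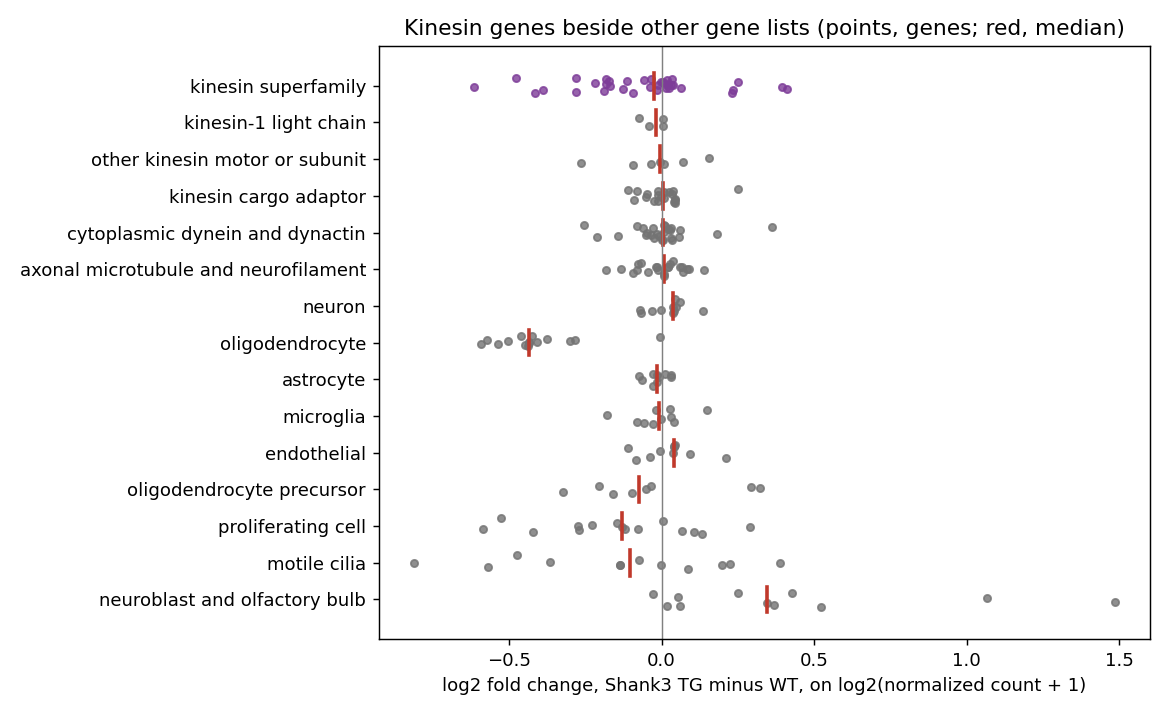
Log2 fold changes (*Shank3* TG minus WT, on log2(normalized count + 1)) of the kinesin genes (purple) and of the genes of 14 other lists (grey), 1 point a gene, with the median of each list in red; vertical position within a list is arbitrary. The median of the kinesin genes is -0.024, those of the transport lists lie between -0.018 and 0.0084, and that of the oligodendrocyte markers is -0.43.

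The identity of reads was examined where genes could share them. Of the 31-base stretches in the transcripts of *Kif5a* and *Kif5c* none occurred in transcripts of another gene, and 1.67% of those of *Kif5b* did, 0.224% in those of other kinesin genes, so the 3 paralogues were separable at that length. The highest shares were 6.56% for *Kif24* and 6.35% for *Kif11*. Exons of *Kif3c*, *Kif2a*, *Kif20a*, *Kif7* and *Kif4* overlapped exons on the opposite strand of a gene in the table by 2617, 1229, 1271, 877 and 832 bases. The library kit keeps the strand of the RNA, but whether the counting used it is not given in the sources used here, so their values may hold reads of *1110002L01Rik*, *Dimt1*, *Cdc23*, *9330171B17Rik* and *Pdzd11*. *Kif18a* shared 11 such bases with *Mettl15*. *Kif28* and *Kif17* shared 155 and 74 exon bases with *Ahctf1* and *Sh2d5* on the same strand.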

How the data were processed

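RNA was sequenced from 3 *Shank3* TG and 3 WT libraries of pooled mPFC as paired-end reads. The authors quantified transcripts with Salmon 0.9.1 on GRCm38 with GC bias correction, summed them to genes with tximport in R 3.6.0 and normalized them in DESeq2 1.19.11, and they deposited the resulting signal, normalized read counts that are not whole numbers, for 18254 genes. The number of reads behind a value is therefore not known, and no counting interval is given. These tools were named in the submitters' processing notes and the study's methods.

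Of the 18254 genes, 18231 were found in GENCODE M21. Genes averaging 5 or more normalized counts were tested with limma 3.58.1 in R 4.3.3 (lmFit followed by eBayes, trend option on) on log2(normalized count + 1), with genotype alone in the model, two-sided tests, Benjamini-Hochberg adjustment and a threshold of 0.05. The procedure was tested on simulated data. Their noise was drawn independently for each gene and library, with no effect of the library number. That simulation therefore cannot decide between the fits with and without the block. The count test of the study's methods was not used, since the values are not counts, and all calls given are limma's. Ratios of 2 genes were compared with an exact permutation test over libraries.

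The replicate numbers come from the labels, and the study's methods speak of pairs of RNA samples. Over genes, the deviations of same-numbered TG and WT libraries from their genotype means correlated at 0.302, 0.332 and 0.616 for numbers 1, 2 and 3. Differently numbered libraries correlated at 0.266 (TG 1 with WT 2), 0.227 (TG 2 with WT 1) and between -0.443 and -0.389 where 1 was numbered 3, so number 3 stood apart and numbers 1 and 2 were weakly separated. By the rule that every same-numbered correlation exceed 0.1, the numbers were taken to pair the libraries. The crossed correlations of numbers 1 and 2 also exceeded 0.1, so the rule could not tell pairing of those numbers from none. The blocked fit and the counts by number rest on that pairing. A fit with the number as a block was an alternative. Other alternatives changed the pseudocount, the filter, the scaling, the eBayes options and the null distribution, or left out libraries.

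Values are given by library for the 3 *Kif5* genes, for kinesin genes with an unadjusted p under 0.05 or with groups that did not overlap, and for the 2 most abundant per kilobase of each subfamily, and by range or fold change for the rest unless stated. From other lists, the 3 most abundant genes and those with an unadjusted p under 0.05 or no overlap could be named. The kinesin genes and the lists were chosen with earlier results of these data known.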

Additional observations from a re-analysis of the deposited data

How the results depend on the processing

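No kinesin gene passed an adjusted p of 0.05 in limma under any alternative run. The count of all genes past it, 0 as reported, was 1 with the robust option, with the replicate block, without both libraries numbered 3 and with a term for them, 26 with an empirical null (z-scores rescaled by their own spread), and 0 to 1 without single libraries (1 without WT library 3). Genes with an unadjusted p under 0.05 numbered 336 as reported, 484 without a trend, 332 with the robust option and 468 without both libraries numbered 3. They numbered 833 with the replicate block, 717 with the term for number 3 and 1215 with the empirical null. Without single libraries they numbered 219 (without TG library 1) to 417. For kinesin genes the count at that threshold was 1 as reported, and 2 without a trend, with the robust option and without both libraries numbered 3. It was 6 with the block or the term, 8 with the empirical null, and 0 to 2 without single libraries. Kinesin genes lower in TG without overlap numbered 9, and higher ones 1, without both libraries numbered 3, and 3 to 10 and 0 to 1 without single libraries; of all genes 13.3% were lower and 12.8% higher without overlap in the former setting, and 5.61% to 7.99% and 5.45% to 8.13% without single libraries. The setting without both libraries numbered 3 and the term for them were chosen after seeing the data.

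The median of the kinesin genes lay between -0.10 (without WT library 1) and 0.0020 (without WT library 3) when single libraries were left out. The log2 fold changes of *Kif5a*, *Kif5b* and *Kif5c* stayed below 0 in all alternatives, between -0.22 and -0.14, -0.30 and -0.069, and -0.24 and -0.11 without single libraries; the difference in the log2 ratio of *Kif5a* to *Kif5b* ran from -0.13 to 0.14 and of *Kif5a* to *Kif5c* from -0.086 to 0.094. *Shank3* passed the adjusted threshold with the robust option, the block, the empirical null and the term (1.18 each), without both libraries numbered 3 (1.14) and without WT library 3 (1.09, adjusted p = 0.0481 in limma), and ran from 1.09 to 1.24 without single libraries.

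Of the 36 kinesin genes, 15 kept their sign in all settings. Without both libraries numbered 3 the sign turned for *Kif15* (0.20), *Kif16b* (-0.087), *Kif1a* (-0.018), *Kif21b* (-0.028), *Kif2c* (0.11) and *Kif9* (0.030), and with upper quartile scaling for *Kif23* (0.0023). Without single libraries the log2 fold change crossed 0 for 21 genes, with ranges of *Kif14* -0.097 to 0.71, *Kif15* -0.22 to 0.21, *Kif16b* -0.067 to 0.062, *Kif17* -0.015 to 0.099, *Kif1a* -0.018 to 0.036, *Kif1b* -0.074 to 0.022, *Kif1bp* -0.021 to 0.063, *Kif1c* -0.16 to 0.055, *Kif20b* -0.49 to 0.0073, *Kif21b* -0.025 to 0.035, *Kif23* -0.22 to 0.19, *Kif26a* -0.26 to 0.024, *Kif26b* -0.055 to 0.11, *Kif27* -0.031 to 0.14, *Kif2a* -0.052 to 0.076, *Kif2c* -0.25 to 0.12, *Kif3a* -0.17 to 0.10, *Kif3b* -0.029 to 0.10, *Kif3c* -0.011 to 0.061, *Kif7* -0.22 to 0.84 and *Kif9* -0.092 to 0.11. The cause of these shifts was not tested, and 3 libraries a genotype limit the precision.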
